A study of Homo sapiens with 4 samples.

Results

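The interferon response and antigen presentation genes described here are 10 of the 858 genes that the authors' deposited table lists for MiaPaca-2 cells with and without a knockdown of PRMT1. They are the rows of that table named ISG15, HERC5, IFI6, IFITM2, GBP2, APOL6, IFNGR2, TBK1, ERAP2 and CD74. They were chosen by their presence in the table, where every gene has an unadjusted p under 0.05, and by their known roles. The fold changes and p-values below are therefore a description of the genes so selected, and no test of the group was made. MiaPaca-2 is an established human pancreatic cancer cell line. Total RNA was sequenced in 4 samples, 2 with a hairpin RNA that targets PRMT1 (shPRMT1) and 2 with a non-targeting hairpin (shNTC), with no other treatment named in the labels. PRMT1 is an arginine methyltransferase, and the labels name a single hairpin target and no rescue of the gene. No value of a single sample was analysed here, so the depth is unknown and no replicate error, interval or per-sample value stands beside a fold change. Nothing in the labels says that the 2 samples of a group came from separate cultures, so the authors' p-values may measure technical spread only.

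Interferons are secreted proteins that signal through receptor chains at the cell surface, JAK kinases and STAT transcription factors. Type I interferon, made after sensors of foreign nucleic acid activate the kinase TBK1, acts mainly through the factor ISGF3, which binds the interferon-stimulated response element (ISRE). Interferon gamma acts mainly through another DNA element, the gamma-activated site (GAS), and it is a strong inducer of antigen presentation. In tumour cells this pathway is known for raising the display of peptides on major histocompatibility complex (MHC) molecules to T cells.

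The 10 genes did not share a direction. The authors' deposited table lists 6 as higher in shPRMT1 (CD74, HERC5, GBP2, APOL6, ERAP2 and IFITM2) and 4 as lower (IFI6, IFNGR2, TBK1 and ISG15). The log2 fold change ran from −0.81 for IFI6 to 1.46 for CD74, with a median of 0.30 over the 10 genes and −0.12 over all 858 genes of the authors' deposited table. By role, both signalling genes were listed lower, 4 of 6 interferon-induced genes were listed higher, and both antigen processing genes were listed higher. Over all 858 listed genes, 357 (41.6%) were listed higher and 501 lower. The groups by role are small, and no pattern is read from their directions. None of the 10 had an authors' adjusted p under 0.05, and their adjusted p-values lay between 0.308 and 0.436. All 10 had an unadjusted p under 0.05, which is the condition for being listed.

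**Figure D1:**
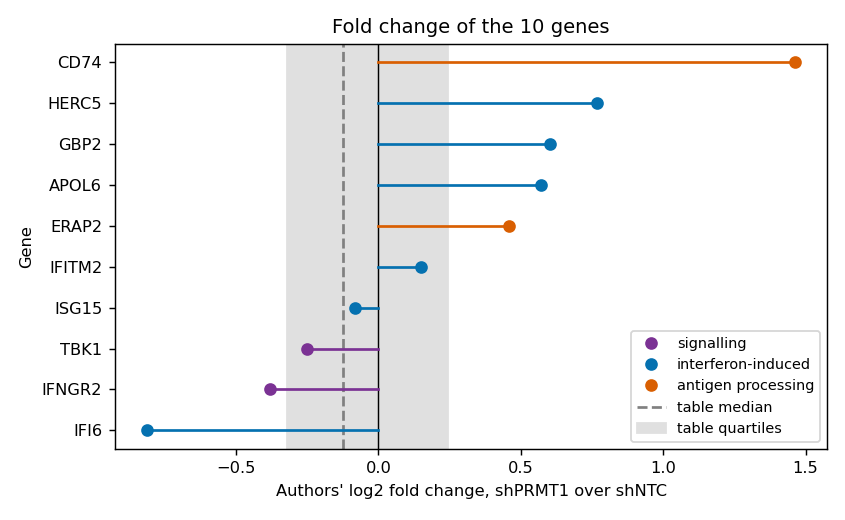
Log2 fold change of shPRMT1 over shNTC (horizontal axis) for each of the 10 genes (vertical axis), as 1 value per gene from the authors' deposited table, with no error available. Points are coloured by role, the dashed line is the median of all listed genes (−0.12) and the grey band spans their quartiles (−0.32 to 0.24). CD74 stands at 1.46 and IFI6 at −0.81, and ISG15, TBK1 and IFITM2 lie inside the band.

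The adjusted p-values imply that 7640 genes were tested. Of these, 0.0131% (1 gene) had an adjusted p under 0.05, and 11.2% had an unadjusted p under 0.05, 4.67% on the higher and 6.56% on the lower side. An unadjusted p under 0.05 together with a log2 fold change of 0.5 or more in either direction was reached by 2.67% of the genes tested, by 204 of the 858 listed genes (23.8%) and by 5 of the 10 genes (CD74, IFI6, HERC5, GBP2 and APOL6). An unadjusted p under 0.01 was reached by 2.5% of the genes tested, by 191 of the listed genes (22.3%) and by 2 of the 10 (IFNGR2 and TBK1). The shares of the listed genes are the like ones, since all 10 were taken from that list. Because the genes were selected from this same comparison, nothing is read from these counts. The table does not name the numerator of its ratios. They were taken as shPRMT1 over shNTC because the authors' deposited table gives PRMT1 itself a ratio of 0.356 (log2 −1.49, p = 0.0156, adjusted p = 0.411), and with the opposite reading each direction given here would turn.

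The sequences before the gene starts are shown because ISRE matches are shared by genes listed in opposite directions. The human promoter windows of RefSeq (build GRCh38.p14), which span 250 bases before to 50 bases after a gene start, held 7 of the 10 genes, with 8 windows because ERAP2 has 2 starts. IFITM2, GBP2 and APOL6 were not matched. The windows were searched on both strands for the ISRE core, spelled TTTC, any 2 bases, TTTC, and for the GAS core, spelled TTCNNNGAA. Each line below gives the part of the window before the start that holds no annotated exon of GENCODE release 29, 5′ to 3′ on the gene's own strand, with capitals for the ISRE core matches. CD74 is shown as the gene with the highest ratio, and its line holds no match.
ISG15, chr1:1013247-1013422, + strand: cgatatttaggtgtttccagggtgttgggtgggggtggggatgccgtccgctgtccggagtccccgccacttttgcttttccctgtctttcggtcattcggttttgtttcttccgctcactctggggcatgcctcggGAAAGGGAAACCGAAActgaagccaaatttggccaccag
IFI6, chr1:27672219-27672442, - strand: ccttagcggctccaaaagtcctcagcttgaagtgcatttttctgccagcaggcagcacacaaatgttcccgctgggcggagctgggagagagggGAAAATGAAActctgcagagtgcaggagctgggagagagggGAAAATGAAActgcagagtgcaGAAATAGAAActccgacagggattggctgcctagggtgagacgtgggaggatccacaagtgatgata
HERC5, chr4:88456869-88457116, + strand: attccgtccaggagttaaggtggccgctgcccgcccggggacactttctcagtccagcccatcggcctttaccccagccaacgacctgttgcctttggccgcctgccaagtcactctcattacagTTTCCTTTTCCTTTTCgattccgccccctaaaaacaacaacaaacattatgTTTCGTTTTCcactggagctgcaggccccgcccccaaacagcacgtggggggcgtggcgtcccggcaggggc
CD74, chr5:150412930-150413160, - strand: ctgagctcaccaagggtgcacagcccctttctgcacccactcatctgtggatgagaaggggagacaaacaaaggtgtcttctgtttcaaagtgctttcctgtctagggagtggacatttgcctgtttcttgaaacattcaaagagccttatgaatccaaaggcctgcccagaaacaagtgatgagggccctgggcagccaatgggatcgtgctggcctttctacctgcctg

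The ISRE core was found in the windows of 4 of the 7 genes. ISG15 held 2 overlapping matches, between bases −113 and −98 from its start. IFI6 held 3 separate matches, starting at −156, −115 and −93, of which the first and the second are the same 10 bases, GAAAATGAAA. HERC5 held 3 matches, an overlapping pair from −125 to −110 and another at −74. The window of the second ERAP2 start held 1 match, GAAAGTGAAA, at −30. All 250 bases before this start are covered by annotated exons, so no longer stretch of this window is printed. No match was found for CD74, TBK1, IFNGR2 or the first ERAP2 start, and no window of the 7 genes held the GAS core. Among all 35116 windows, 3.57% held the ISRE core and 7.66% the GAS core. These shares count windows and not genes, and the 10 genes were chosen partly for known roles in the interferon response. No enrichment is therefore read from them. The matches are letters in a window and show no binding in these cells.

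**Figure D2:**
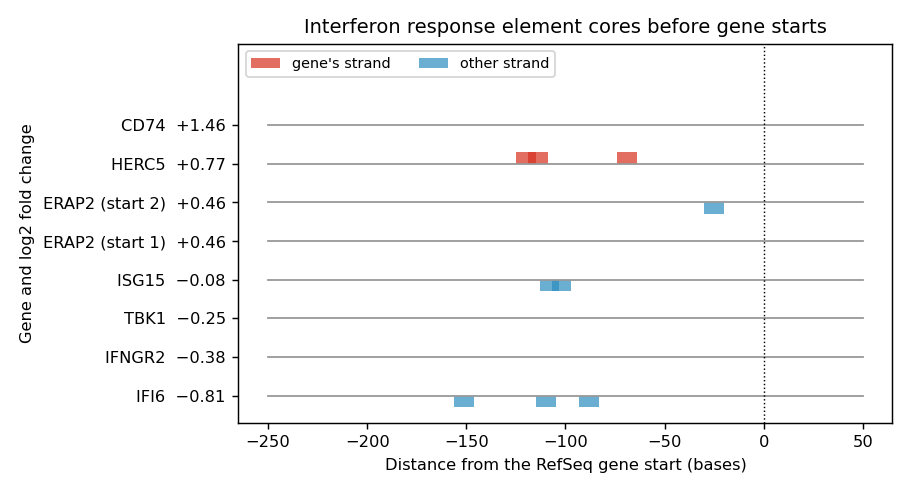
Positions of ISRE core matches (boxes, coloured by strand) in the RefSeq windows of 7 genes, by distance from the gene start in bases, with genes ordered by the log2 fold change printed beside the name. The genes with matches are spread over the order, from HERC5 at 0.77 to IFI6 at −0.81.

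The 4 genes with an ISRE core were split in direction, HERC5 and ERAP2 being listed higher in the authors' deposited table and IFI6 and ISG15 lower. Among 627 listed genes with a window matched by symbol, 22 (3.51%) held the ISRE core, and these 22 include the 4 genes. Listed higher in the authors' deposited table were 9 of the 22, and 13 were listed lower. The split of the 22 therefore overlaps that of the 4 genes and is not independent of it. Over all 627 genes, 254 (40.5%) were listed higher. The median log2 fold change in the authors' deposited table was −0.05 for the 22 genes and −0.13 for the 627.

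TBK1 and IFNGR2, the signalling genes, had the smallest p-values of the 10. TBK1 (ENSG00000183735.5, chromosome 12) encodes the kinase that phosphorylates the factor IRF3 after RNA or DNA sensing and so starts interferon production. The authors' deposited table gives it a ratio of 0.840, or −0.25 on the log2 scale (p = 0.00374, authors' adjusted p = 0.364). In the order of absolute log2 fold change, 57.9% of the listed genes were larger, while TBK1 was the 74th gene of the 858 in the order of p. In GENCODE release 29, 14.7% of the exon bases of TBK1 are also covered on the opposite strand by the antisense gene AC135279.3. Whether the authors' counting used the strand, and whether their annotation on build hg19 held this overlap, is not given in the sources used here. Reads of this stretch may therefore belong to either gene.

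IFNGR2 (ENSG00000159128.10, chromosome 21) encodes the signalling chain of the interferon gamma receptor, which brings JAK2 to the receptor complex. The authors' deposited table gives it a ratio of 0.769, or −0.38 on the log2 scale (p = 0.00186, authors' adjusted p = 0.308). It was the 44th gene in the order of p, the foremost of the 10. TMEM50B on the opposite strand covers 12.8% of the exon bases of IFNGR2, with the same limit on the assignment of reads. Both signalling genes thus had small differences with low p-values, and neither reached an absolute log2 fold change of 0.5.

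Of the list of 29 interferon ligands, receptor chains, JAK-STAT genes and their inhibitors, IFNGR2 was the 1 gene (3.45%) in the authors' deposited table, which lists 11.2% of all genes tested. Its partner chain IFNGR1, the kinases JAK1, JAK2 and TYK2, the factors STAT2, IRF1 and IRF9, and both type I receptor chains were not among the listed genes. Of 31 genes of nucleic acid sensing and TBK1 signalling, TBK1 was the 1 gene (3.23%) in the authors' deposited table, against the same 11.2%. The related kinase IKBKE, the factors IRF3 and IRF7, and the sensors and adaptors CGAS, STING1, RIGI, IFIH1 and MAVS were not listed. A gene that is not listed was either untested or tested with a p of at least 0.05, which cannot be told apart. The lists do not hold every gene with a role in sensing or the interferon response. DDX41 and CMTR1 lie outside them and were named after their values were seen. Both were listed lower, at −0.67 and −0.85 on the log2 scale. Of other genes so named below, CTSV, PSMB6 and PSMD9 were listed higher and PSMC4 and PSMD10 lower.

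ISG15 and HERC5 work together: ISG15 is a ubiquitin-like protein that is attached to other proteins, and HERC5 is the main human ligase that attaches it. They were listed in opposite directions. For HERC5 (ENSG00000138646.4, chromosome 4) the authors' deposited table gives a ratio of 1.70, or 0.77 on the log2 scale (p = 0.0255, authors' adjusted p = 0.432), and 10.5% of the listed genes had a larger absolute value. For ISG15 (ENSG00000187608.5, chromosome 1) the authors' deposited table gives a ratio of 0.945, or −0.08 on the log2 scale (p = 0.0311, authors' adjusted p = 0.432), and 94.6% of the listed genes had a larger absolute value. The direction of ISG15 depended on the scaling, since its log2 fold change became 0.04 when the values were centred on the median of the table. The processed pseudogene AL645608.3 on the opposite strand covers 3.83% of the exon bases of ISG15. No difference between HERC5 and ISG15 could be tested, because no error of either fold change was available. HERC2, a larger ligase of the same symbol family that is known for roles in DNA repair, was listed at a log2 fold change of 0.27 (p = 0.00171, authors' adjusted p = 0.308) in the authors' deposited table. USP18, which removes ISG15, and UBA7 and UBE2L6, the enzymes before HERC5 in the same chain, were not listed.

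IFI6 and IFITM2 encode small membrane proteins that hinder viruses, IFI6 at the endoplasmic reticulum and mitochondria and IFITM2 at endosomes, where it hinders fusion. IFI6 (ENSG00000126709.10, chromosome 1) has the lowest ratio of the 10 in the authors' deposited table, 0.570, or −0.81 on the log2 scale (p = 0.0355, authors' adjusted p = 0.432). It was the 36th lowest of all listed genes. IFITM2 (ENSG00000185201.12, chromosome 11) was listed at a ratio of 1.11, or 0.15 on the log2 scale (p = 0.0114, authors' adjusted p = 0.397), in the authors' deposited table. IFITM2 is nearly the same as its neighbours over part of its length. Of the 75-base stretches of its longest protein-coding transcript in GENCODE release 29, 4.52% also occur in IFITM3 and 3.06% in IFITM1, and annotated exons of IFITM1 on the same strand cover 22.7% of the exon bases of IFITM2. Its value is uncertain where the authors' counting shared such reads, and whether their annotation on build hg19 held the same exon overlap is unknown. IFITM1 and IFITM3 were not listed.

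GBP2 and APOL6 were listed at similar ratios. GBP2 (ENSG00000162645.8, chromosome 1), a guanylate-binding GTPase that acts against intracellular pathogens and is strongly induced by interferon gamma, was listed at 1.52 in the authors' deposited table, or 0.60 on the log2 scale (p = 0.0353, authors' adjusted p = 0.432). APOL6 (ENSG00000221963.5, chromosome 22), an intracellular apolipoprotein L also induced by interferon gamma, was listed at 1.49 in the authors' deposited table, or 0.57 on the log2 scale (p = 0.0441, authors' adjusted p = 0.436). APOL6 had the largest p of the 10 genes, and the largest p in the table was 0.0498. They were the 2 genes of 13 (15.4%) in the GBP and APOL families that were listed, beside 11.2% of all genes tested. The shares are unlike, since how many of the 13 were tested is unknown and both genes were chosen because they were listed. GBP1, GBP3, GBP4 and GBP5 and APOL1 to APOL4 were not listed. In the longest protein-coding GBP2 transcript, 0.466% of the 75-base stretches also occur in the pseudogene GBP1P1, and none of those of APOL6 occur in another gene. An annotated GBP7 exon shares 9.89% of the exon bases of GBP2 on the same strand.

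**Figure D3:**
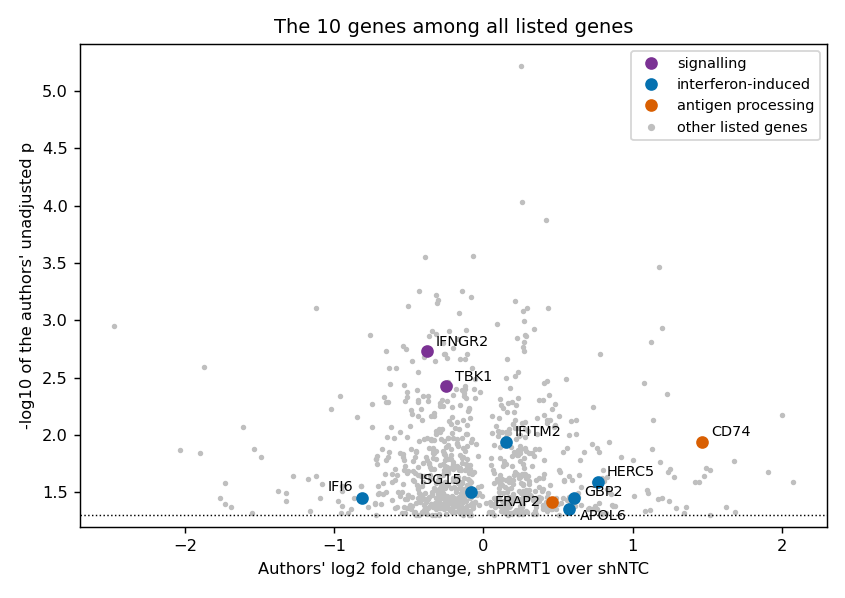
Each listed gene by the authors' log2 fold change of shPRMT1 over shNTC (horizontal) and the −log10 of the authors' unadjusted p (vertical), with the 10 genes coloured by role and a dotted line at p = 0.05. In the authors' deposited table IFNGR2 (p = 0.00186) and TBK1 (p = 0.00374) lie above the rest of the 10, and CD74 lies farthest to the right of the 10 at 1.46.

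CD74 had the highest ratio of the 10 genes. It encodes the invariant chain, which fills the groove of MHC class II molecules until they reach the endosome and also serves as a receptor of the cytokine MIF. CD74 (ENSG00000019582.10, chromosome 5) stood at 2.76 times its shNTC value in the authors' deposited table, or 1.46 on the log2 scale (p = 0.0115, authors' adjusted p = 0.397). It was the 11th highest of the 858 genes, and 2.56% of the listed genes had a larger absolute log2 fold change. No 75-base stretch of its longest protein-coding transcript occurs in another gene. Its level in either group is unknown here, so whether the ratio is one of low values was not tested.

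Of 25 genes of class II antigen processing, 2 (8%) were listed, both higher. Of all genes tested 11.2% were listed, and 41.6% of the listed genes were higher. How many of the 25 were tested is unknown, so the shares listed are unlike. Beside CD74, the authors' deposited table holds LGMN, the asparaginyl endopeptidase of endosomes and lysosomes, with a log2 fold change of 0.21 (p = 0.00303, authors' adjusted p = 0.364). The transactivator CIITA, the RFX factors, the HLA-DR, HLA-DP, HLA-DQ and HLA-DM chains and the protease CTSS were not listed. CTSV, a cathepsin that cuts the invariant chain in the thymus, is in none of the fixed lists and is named after its value was seen: it stood at 0.48 (p = 0.0353, authors' adjusted p = 0.432) in the authors' deposited table. Class II genes also mark leukocytes, and 0 of 11 leukocyte markers, PTPRC and CD14 among them, were listed. Their levels are unknown here, and their part in the CD74 value was not tested.

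ERAP2 (ENSG00000164308.12, chromosome 5) encodes an aminopeptidase of the endoplasmic reticulum that trims peptides for MHC class I molecules. The authors' deposited table gives it a ratio of 1.37, or 0.46 on the log2 scale (p = 0.0384, authors' adjusted p = 0.432), and 26.5% of the listed genes had a larger absolute value. It was the 1 listed gene of 25 (4%) in class I antigen processing, beside 11.2% of all genes tested, and how many of the 25 were tested is unknown. Its relative ERAP1, B2M, the transporter subunits TAP1 and TAP2 and the immunoproteasome subunits PSMB8, PSMB9 and PSMB10 were not listed. PSMB6, the subunit that PSMB9 replaces in the immunoproteasome, was named after its value was seen and stood at 0.10 (p = 0.0292, authors' adjusted p = 0.432) in the authors' deposited table. Other proteasome-linked genes outside the lists went both ways there. PSMC4 and PSMD10 were listed lower, at −0.26 and −0.27 on the log2 scale, and PSMD9 higher, at 0.40. Genes named after their values were seen, CTSV and PSMB6 included, say nothing on the direction of the lists.

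Of 58 interferon-stimulated genes, the authors' deposited table holds 5, with 2 higher (HERC5 and IFITM2) and 3 lower (IFI6, ISG15 and SHISA5). This split depends on the make-up of the list. GBP2 and APOL6, also induced by interferon and both listed higher, are counted in the list of GBP and APOL families. The direction of ISG15 depended on the scaling. SHISA5, a membrane protein also known as a p53 target, is the gene outside the 10, with a log2 fold change of −0.28 (p = 0.0296, authors' adjusted p = 0.432) in the authors' deposited table. MX1, RSAD2, IFI27, IFI44L and the IFIT and OAS genes, which are among the most inducible by interferon, were not listed. In total the authors' deposited table holds 12 of 192 list genes (6.25%), with 7 higher and 5 lower, and 10 of these 12 are the genes described above. Over all genes tested the share listed was 11.2%, and 41.6% of the listed genes were higher. Which of the 192 genes were tested is unknown.

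**Figure D4:**
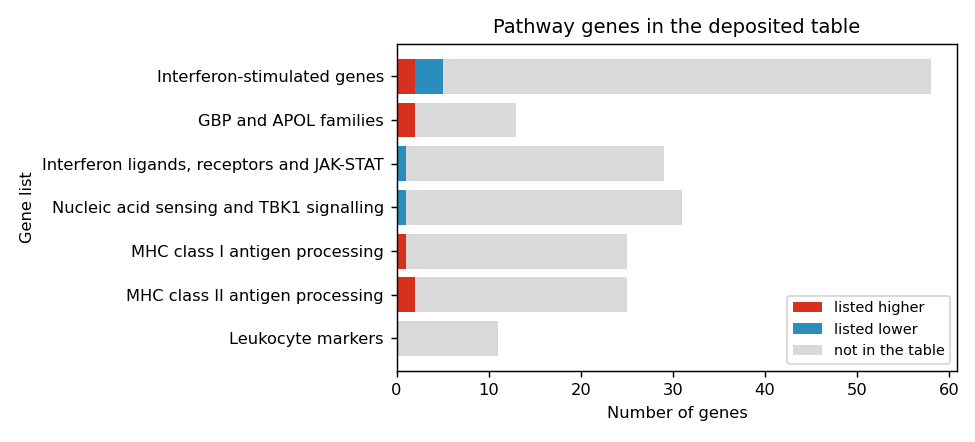
Number of genes (horizontal axis) in each of 7 gene lists (vertical axis) that were listed higher, listed lower or not in the authors' deposited table. At most 5 genes of a list were in the table, and the list of interferon-stimulated genes held both directions (2 higher and 3 lower). GBP2 and APOL6, also induced by interferon and both listed higher, are counted in the list of GBP and APOL families.

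The adjusted p-values do not order the genes finely. HERC5, ISG15, IFI6, GBP2 and ERAP2 share the adjusted p of 0.432 with 400 listed genes in all, because the adjustment carries the value of a later rank back over a run of genes. Across the 10 genes the order of the p-values was not that of the fold changes: IFNGR2 and TBK1 led by p with log2 fold changes of −0.38 and −0.25, whereas HERC5 had 0.77 with p = 0.0255 in the authors' deposited table.

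Transcript length moved with direction in the table. The median longest transcript was 2823 nt for genes listed lower and 4436 nt for genes listed higher in the authors' deposited table, over 846 genes matched to GENCODE release 29. Among the 10 genes the medians were 1531 nt for the 4 lower and 3600 nt for the 6 higher genes. For GBP2 the longest transcript (3687 nt) is longer than its longest protein-coding one (2220 nt). With the latter the median of the higher genes would be lower. IFI6 (841 nt) and ISG15 (787 nt) were among the shortest and were listed lower, and APOL6 (10121 nt) and ERAP2 (5705 nt) were the longest and were listed higher. CD74 (1727 nt) and IFITM2 (892 nt) were short and listed higher. The part of length in these values was not tested.

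**Figure D5:**
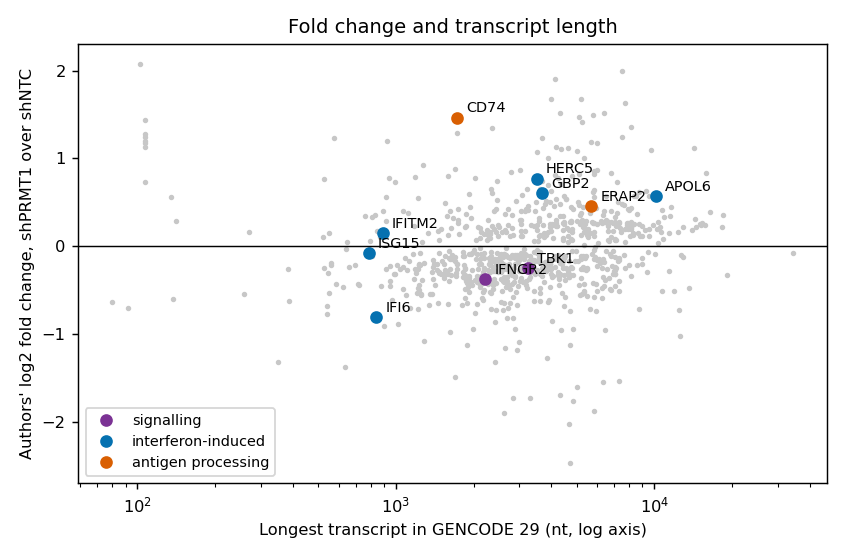
Log2 fold change of shPRMT1 over shNTC in the authors' deposited table (vertical) against the longest transcript in GENCODE release 29 (horizontal, nt, log axis), with the 10 genes coloured by role and other listed genes in grey. ISG15, IFI6 and IFITM2 (787, 841 and 892 nt) lie on both sides of 0, and APOL6 lies farthest right of the 10 at 10121 nt.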

How the data were processed

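Total RNA of MiaPaca-2 cells was sequenced in 2 shPRMT1 and 2 shNTC samples, grouped by the labels' titles. The labels' extraction text also speaks of a histone immunoprecipitation, while the molecule and the library kit are those of total RNA. Per the submitters' processing notes, tools used were edgeR 3.36.0, StringTie 2.2.1, HISAT2 2.2.1, deepTools and Trim Galore 0.6.7, with the build hg19 and no stated role or order. The authors' deposited table gives per gene a p-value, an adjusted p-value, a linear ratio of the groups and the log2 of that ratio. The sources used here do not state the test, the normalization or the choice of tested genes. No test of samples was run.

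The design foresaw a count model, with the authors' own comparison as the contingency, which was used. The 10 genes and the 7 gene lists were chosen with earlier results of these data known. By rule the text names the 10 genes, PRMT1, each list gene in the table and table genes of the same symbol families. CTSV, PSMB6, the other proteasome-linked genes, DDX41 and CMTR1 were named outside this rule, after their values were seen. Lists were matched by symbol and synonym in RefSeq. The number of genes tested was solved from p, its rank and the adjusted p, and 52 of 53 runs of tied values led to it within 0.01. Windows and sequences came from RefSeq GRCh38.p14, and transcripts, exon overlaps and the 75-base stretches from GENCODE 29 on GRCh38. The authors used hg19, and whether their annotation held the same exon overlaps is unknown. The read length is not stated. Python 3.11.15, pandas 2.3.3, numpy 2.4.6 and matplotlib 3.10.9 were used. The recovery of the number of genes tested was tested on simulated data. The motif search was tested there with the GAS core only, which reads the same on both strands. Its use for the ISRE core, for overlapping matches and on the other strand was not tested, and neither were the other steps.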

Additional observations from a re-analysis of the deposited data

How the results depend on the processing

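None of the 10 genes passed an adjusted p under 0.05 in the authors' table, and 0 passed an adjusted p under 0.1. At an unadjusted p under 0.05 the count was 10, which the selection of the genes fixes. It was 2 at an unadjusted p under 0.01, and 5 at an unadjusted p under 0.05 and a log2 fold change of 0.5 or more in either direction. The list genes in the table numbered 12 with matching by symbol and synonym and 12 by symbol alone, and 3 of them had an unadjusted p under 0.01. Of the 10 genes, 6 were listed higher, 7 with all log2 values raised by 0.1, 6 with them lowered by 0.1, and 7 with them centred on the table's median. ISG15 alone turned under these shifts, to 0.018 when raised by 0.1 and 0.043 when centred. No paired analysis was possible because the result comes from no test of samples. The alternatives that need counts per sample (another normalization, no filter, each replicate left out) were not run. Depth is unknown.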
